A study of Homo sapiens with 8 samples.

Results

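The genes described here are 10 keratins of SCC25, a permanent line grown from a squamous carcinoma of the tongue, measured by RNA sequencing before and after loss of the transcription factor ETS1. They were chosen by name from the 56638 rows of the count tables and fall into basal keratins (KRT5, KRT14 and KRT15), mucosal keratins (KRT4 and KRT13), simple keratins (KRT7, KRT8, KRT18 and KRT19) and KRT17, a keratin of wounded and stressed epithelium. The 8 libraries formed 4 groups of 2. The siRNA control cells received non-targeting small interfering RNAs (siRNA) and the ETS1 siRNA cells a pool of 4 siRNAs against ETS1, both delivered by transient transfection, at a time before harvest that is not given in the sources used here. The shCON cells carried a non-targeting short hairpin RNA (shRNA) and the shETS1 cells 1 hairpin against ETS1. Both were introduced by lentivirus and then selected with 2 μg/ml puromycin. All groups were the same line in medium with serum and hydrocortisone, and no group was left without siRNA or hairpin. The study describes the siRNA replicates as biological, while for the hairpin cells nothing says whether replicates came from separate transductions, so that p-values there measure only the spread between these libraries, which may be technical.

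Keratins build the intermediate filaments of epithelial cells. Each filament is made of pairs of an acidic type I keratin and a basic type II keratin, so that epithelia express them in matched sets that report the cell's position and state. KRT5 (type II) pairs with KRT14 or KRT15 (type I) in the proliferating basal layer of stratified epithelium. KRT4 (type II) pairs with KRT13 (type I) in the upper layers of the moist lining of the mouth and oesophagus. KRT8 and KRT7 (type II) pair with KRT18 and KRT19 (type I) in single-layered epithelia, and these simple keratins are often found in carcinomas.

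Knockdown was checked first. Levels are given as CPM, read counts relative to the scaled depth of the library, and are comparable within a table only. ETS1 stood at 288 and 248 CPM in siRNA control and at 17.4 and 13.2 CPM in ETS1 siRNA. It fell by 4.13 on the log2 scale (SE 0.19, edgeR adjusted p = 0.000173). In the hairpin cells it stood at 82.3 and 72.1 CPM in shCON and at 9.76 and 11.1 CPM in shETS1, where it fell by 2.89 on the log2 scale (SE 0.10, edgeR adjusted p = 3.82e-13). Total counts ranged from 15954616 to 25953213 per library. All 6 squamous epithelial markers listed (CDH1, EPCAM, TP63, SFN, DSP and PERP) reached 1 CPM in every group. Noncoding structural RNAs, which carry no poly(A) tail, accounted for at most 0.00339% of counts in the siRNA table, between 5.61% and 6.63% in shCON and between 9.64% and 12.3% in shETS1, so that the kind of knockdown and the preparation of the table cannot be told apart. The summed level of 7 fibroblast markers, carried there by LUM, DCN and COL3A1, was 244 to 272 CPM in shCON and 2100 to 2200 CPM in shETS1, while THY1 and PDGFRB stayed under 1 CPM in both. In the siRNA table the same sum was 154 to 176 CPM in the controls and 245 to 280 CPM after siRNA, carried by COL1A1. Among 6 immune markers the sum reached at most 4.05 CPM and among 4 melanocyte markers at most 3.37 CPM. The 4 endothelial markers summed to 23.9 to 24.1 CPM in shETS1, from KDR, and to at most 2.03 CPM elsewhere, with PECAM1 at 0 in every group. The part of these differences in the keratin values was not tested. In bulk RNA, fewer cells with a keratin and less of its RNA per cell cannot be told apart.

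A gene was called when the quasi-likelihood test of edgeR, fitted on every gene that passed the filter on low counts, gave a Benjamini-Hochberg adjusted p under 0.1. After stable loss of ETS1, all 10 keratins were called, 8 higher and 2 lower, in a comparison that called 60.6% of the 16481 genes tested (29.7% higher and 30.9% lower). Mucosal keratins had the largest class median, a log2 fold change of 2.17, followed by the basal keratins with 0.77. The simple keratins had a median of 0.03 that hid a split, since KRT19 and KRT7 rose while KRT8 and KRT18 fell. After siRNA, 2 of the 9 keratins tested were called, KRT13 and KRT19, both higher, in a comparison that called 3.41% of the 14742 genes tested (1.13% higher and 2.27% lower). A further 4 keratins, KRT5, KRT14, KRT15 and KRT17, had positive fold changes with an unadjusted p under 0.05 that did not pass the adjustment. Of all 14742 genes tested, 2721 had an unadjusted p under 0.05 in either direction. The median log2 fold change over all genes tested was 0.0018 after siRNA and 0.00066 after shRNA, against 0.47 and 0.97 over the keratins tested.

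**Figure D1:**
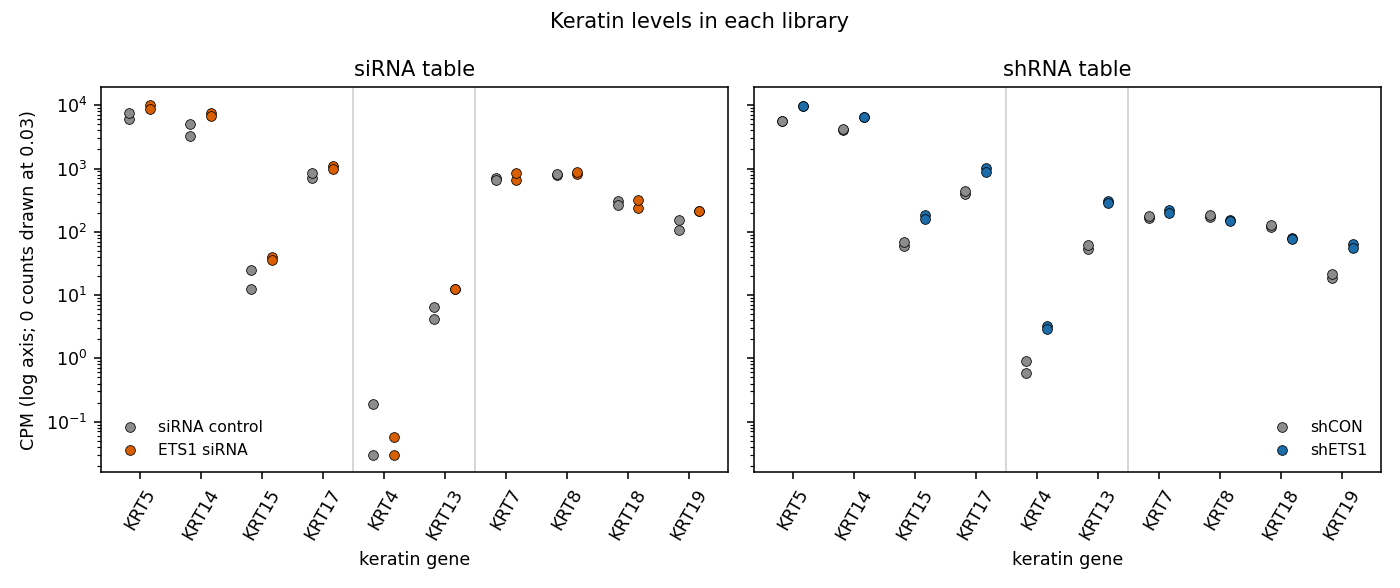
Level of each keratin in each of the 8 libraries, in CPM on a log axis, with the siRNA table on the left and the shRNA table on the right; each point is a library and vertical lines separate the basal and stress keratins, the mucosal keratins and the simple keratins. KRT5 and KRT14 lie at 3277 CPM or more throughout, KRT4 lies at the bottom of both panels, and the shETS1 points lie clear of the shCON points for all 10 genes, as they did for 76.6% of the 16481 genes tested.

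Corrected for transcript length, as TPM, KRT5 and KRT14 had the highest levels of the 10 in all 4 groups. The ranges of their libraries overlapped in every group. Within each library KRT5 was above KRT14 in both siRNA controls and both shETS1 libraries, below it in both ETS1 siRNA libraries, and on either side of it in shCON. KRT17 came at place 3 in all 4 groups, with a mean of 1187 TPM in siRNA control and 589 TPM in shCON. In the siRNA table KRT8, KRT7, KRT18 and KRT19 followed, between 1046 and 215 TPM in the controls, and the libraries of KRT8 and KRT7 overlapped after ETS1 siRNA. KRT15 and KRT13 came at places 8 and 9 there, with 25.6 and 7.25 TPM in the controls, and KRT4 was last. The order of the hairpin cells differed in its middle. KRT13 was at place 8 in shCON with a mean of 72.0 TPM and at place 4 in shETS1 with 307 TPM, above KRT7, KRT8 and KRT18. KRT15, at place 7 in shCON with 80.5 TPM, was at place 6 in shETS1 with 178 TPM. KRT19 was at place 9 in both, with 30.4 and 77.3 TPM. TPM values were not scaled between libraries as CPM values were, so that changes in TPM and in CPM differ. KRT7 had means of 224 TPM in shCON and 232 TPM in shETS1, against 171 and 211 CPM.

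Of the basal keratins, KRT5 was measured on chromosome 12 (chr12:52908359-52914314, minus strand, GRCh37). In the siRNA table its level was 6041 and 7608 CPM in the controls and 10185 and 8747 CPM after ETS1 siRNA. The closest control and ETS1 siRNA libraries differed by a ratio of 1.15, where the controls differed from each other by 1.26. The log2 fold change of 0.47 (SE 0.15, 95% interval 0.14 to 0.81) did not pass the threshold (edgeR adjusted p = 0.157). In the hairpin cells KRT5 was at 5666 and 5673 CPM in shCON and at 9631 and 9648 CPM in shETS1. The replicates were almost equal there, and KRT5 rose by 0.77 on the log2 scale (SE 0.10, edgeR adjusted p = 4.58e-06), a fold of 1.70.

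KRT14, the type I partner of KRT5, lies on chromosome 17 (chr17:39738531-39743147, minus strand, GRCh37). Its level was 3277 and 5066 CPM in siRNA control and 7609 and 6694 CPM in ETS1 siRNA. Control replicate 1 was far below control replicate 2, at a ratio of 1.55. The log2 fold change was 0.78 (SE 0.19, 95% interval 0.33 to 1.22) and lay just outside the threshold (edgeR adjusted p = 0.104). In the hairpin cells KRT14 was at 4060 and 4195 CPM in shCON and at 6433 and 6513 CPM in shETS1, a rise of 0.65 on the log2 scale (SE 0.10, edgeR adjusted p = 1.87e-05). Of the 50-base stretches in KRT14 transcripts, 17% occurred in transcripts of other genes (384 stretches, 180 of them in KRT16), so that short reads from the pair can be divided between them.

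KRT15, a type I keratin of basal cells and of hair follicle stem cells, was the lowest of the basal keratins (chr17:39669997-39678781, minus strand, GRCh37). It was at 12.6 and 25.3 CPM in siRNA control and at 39.6 and 36 CPM in ETS1 siRNA. The controls differed by a ratio of 2.01, the widest spread between controls of the 9 keratins tested after siRNA. The log2 fold change of 1.00 (SE 0.28) did not pass (edgeR adjusted p = 0.126). In shCON it was at 60.7 and 68.6 CPM and in shETS1 at 182 and 158 CPM. The groups were well apart, and KRT15 rose by 1.39 on the log2 scale (SE 0.09, edgeR adjusted p = 5.24e-10), the largest rise among the basal keratins.

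The basal class as a whole had 3 of 3 members with positive fold changes in both knockdowns, 0 of 3 called after siRNA and 3 of 3 called after shRNA. Those comparisons called 3.41% and 60.6% of all genes tested. All 3 had an unadjusted p under 0.05 after siRNA, as did 2721 of all 14742 genes tested. DESeq2 called all 3, among 797 genes called in all. With the replicate block, a term for replicate number added to the fit, 0 keratins were called after siRNA. The class median was 0.78 after siRNA and 0.77 after shRNA on the log2 scale. The siRNA median ranged from 0.50 without siRNA control replicate 1 to 1.13 without siRNA control replicate 2. No basal keratin had a called difference between the knockdowns, with differences (shRNA effect minus siRNA effect) of 0.27 for KRT5 (95% interval -0.14 to 0.68), -0.15 for KRT14 (-0.69 to 0.39) and 0.37 for KRT15 (-0.36 to 1.10). With intervals this wide, the test does not show that both knockdowns acted alike on the basal keratins.

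Mucosal KRT13 had the largest rise of the 10 keratins in both knockdowns, KRT4 being untested after siRNA (chr17:39657233-39661957, minus strand, GRCh37). Its level was 4.23 and 6.49 CPM in siRNA control, from 84 and 104 reads, and 12.3 and 12.4 CPM in ETS1 siRNA, from 212 and 252 reads. The knockdown libraries agreed closely, and the lower of them was 1.90 times the higher control. KRT13 rose by 1.22 on the log2 scale (SE 0.22, edgeR adjusted p = 0.0431), place 46 in the order of rises among the 14742 genes tested. In the hairpin cells it was at 54.4 and 61.4 CPM in shCON and at 305 and 283 CPM in shETS1. The lower shETS1 library was 4.61 times the higher shCON library, and KRT13 rose by 2.34 on the log2 scale (SE 0.08, edgeR adjusted p = 3.91e-13), a fold of 5.07 and place 177 among the 16481 genes tested. An unnamed long noncoding RNA on the opposite strand overlaps 476 exon bases of KRT13, and whether reads were counted by strand is not given in the sources used here, so that reads of the 2 genes cannot be told apart.

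KRT4, the type II partner of KRT13, was near the limit of detection (chr12:53200333-53207900, minus strand, GRCh37). The siRNA controls held 0 and 3 reads and the ETS1 siRNA libraries 1 and 0 reads, at or under the floor of 3 counts per library, which stood at 0.147 to 0.188 CPM. No fold is given for that comparison, and KRT4 did not pass its filter. In the hairpin cells KRT4 had 15 and 24 reads in shCON and 74 and 73 reads in shETS1, or 0.597 and 0.925 CPM against 3.22 and 2.89 CPM. The shETS1 libraries were both above the controls, and KRT4 rose by 1.99 on the log2 scale (SE 0.27, edgeR adjusted p = 8.68e-06). None of its 50-base stretches occurred in transcripts of another gene.

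KRT13 and KRT4 thus both rose after shRNA, with a class median of 2.17, from very unequal levels. The TPM ratio of KRT4 to KRT13 was 0.0088 and 0.0121 in shCON and 0.0085 and 0.0082 in shETS1. KRT13 mRNA was present at a large excess over its usual type II partner in all 4 hairpin libraries.

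ETS1 belongs to a family of factors that bind DNA at a GGAA core. For the members with an entry in the RefSeq promoter table used here (GRCh38.p14), the 250 bases before the start listed there are printed. They are given as they read toward the gene, with each GGAA, or TTCC where the core lies on the other strand, in capitals. The windows show how often the core occurs before a listed start of a basal, a mucosal and a simple keratin that moved after shRNA. They lie at chr12:52520395-52520644 for KRT5, chr12:52814117-52814366 for KRT4 and chr12:52926470-52926719 for KRT8, all on the minus strand.
KRT5: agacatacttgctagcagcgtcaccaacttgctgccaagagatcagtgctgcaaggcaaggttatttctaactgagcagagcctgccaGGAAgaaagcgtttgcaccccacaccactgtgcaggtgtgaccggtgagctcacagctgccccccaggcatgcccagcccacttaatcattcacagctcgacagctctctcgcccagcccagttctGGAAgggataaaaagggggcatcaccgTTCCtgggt
KRT4: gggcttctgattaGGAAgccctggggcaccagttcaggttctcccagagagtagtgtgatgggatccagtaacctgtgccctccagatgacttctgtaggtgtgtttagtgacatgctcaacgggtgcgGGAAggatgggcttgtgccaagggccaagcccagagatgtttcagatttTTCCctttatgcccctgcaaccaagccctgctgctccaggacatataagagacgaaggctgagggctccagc
KRT8: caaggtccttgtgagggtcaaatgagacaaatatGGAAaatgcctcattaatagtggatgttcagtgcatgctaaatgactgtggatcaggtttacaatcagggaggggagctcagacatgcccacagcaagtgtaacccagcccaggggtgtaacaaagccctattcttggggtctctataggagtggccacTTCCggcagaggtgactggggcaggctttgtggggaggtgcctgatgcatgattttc

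The KRT5 and KRT4 windows each held 3 matches to GGAA on either strand and the KRT8 window 2, against a median of 3 over the 35116 promoters of that length in the table, of which 92.7% held at least 1. The longer ETS motif CCGGAAGT, which contains a GGAA, occurred on either strand once in the KRT8 window and in neither of the others, and 3.42% of all the promoters held it. TATAA occurred once in the KRT4 window and in 18.9% of all the promoters. In the GRCh37 annotation the first start listed for KRT8 lies 44878 bases upstream of the start of its canonical transcript. The start behind the KRT8 window comes from another annotation and was not matched to either of these. The KRT8 window therefore need not lie next to the transcript measured here. The matches describe letters in these windows and not binding.

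Simple keratins were the class with members called in both directions after shRNA. KRT19, a type I keratin without the usual tail that occurs both in simple epithelia and in the basal layer of oral epithelium, rose in both knockdowns (chr17:39679869-39684560, minus strand, GRCh37). It was at 107 and 151 CPM in siRNA control and at 211 and 216 CPM in ETS1 siRNA. The lower knockdown library was 1.39 times the higher control, close to the ratio of 1.42 between the controls. KRT19 rose by 0.73 on the log2 scale (SE 0.17, edgeR adjusted p = 0.0956). In shCON it was at 18.5 and 21.2 CPM and in shETS1 at 65.0 and 55.2 CPM. It rose there by 1.60 on the log2 scale (SE 0.10, edgeR adjusted p = 6.16e-10), a fold of 3.02.

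KRT7, the type II keratin of ducts and glands, had the smallest rise of the 8 after shRNA (chr12:52626304-52645970, plus strand, GRCh37). The siRNA controls were at 704 and 650 CPM and the ETS1 siRNA libraries at 671 and 844 CPM, so that the groups overlapped. The log2 fold change was 0.16 (95% interval -0.16 to 0.49, edgeR adjusted p = 0.58). In shCON it was at 165 and 176 CPM and in shETS1 at 223 and 198 CPM, which did not overlap, and KRT7 rose by 0.30 on the log2 scale (SE 0.08, edgeR adjusted p = 0.00327). The antisense gene KRT7-AS shares 282 exon bases with it.

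KRT8, the type II keratin that appears first in embryonic epithelium, fell after shRNA and was not called after siRNA, and the difference between the knockdowns was called in the fit reported but lost its call in 10 of 20 alternatives (chr12:53290971-53343738, minus strand, GRCh37). It was at 795 and 809 CPM in siRNA control and at 807 and 885 CPM in ETS1 siRNA, which overlapped, with a log2 fold change of 0.08 (95% interval -0.19 to 0.35, edgeR adjusted p = 0.773). It was at 174 and 183 CPM in shCON and at 153 and 147 CPM in shETS1. KRT8 fell by 0.25 on the log2 scale there (SE 0.07, edgeR adjusted p = 0.00715). Without shCON replicate 2 the fall was 0.21 and no longer called (edgeR adjusted p = 0.101).

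KRT18, the type I partner of KRT8, lies beside it in the otherwise type II cluster (chr12:53342655-53346690, plus strand, GRCh37). It was at 308 and 264 CPM in siRNA control and at 239 and 315 CPM in ETS1 siRNA. The control values fell between those of the knockdown, and the log2 fold change was -0.05 (95% interval -0.42 to 0.33, edgeR adjusted p = 0.911). In shCON it was at 120 and 127 CPM and in shETS1 at 81.0 and 77.1 CPM. The groups were apart, and KRT18 fell by 0.65 on the log2 scale (SE 0.07, edgeR adjusted p = 9.87e-07), the larger of the 2 falls. KRT8 and KRT18 share 525 exon bases on opposite strands, and 16.1% and 26.8% of their 50-base stretches occur in other genes' transcripts. The 50 rows of KRT8 pseudogenes held 0.94% to 8.93% of the parent's reads and the 67 rows of KRT18 pseudogenes 0.34% to 3.70%. Adding pseudogene counts to the parents changed no call of a keratin.

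KRT17, a type I keratin induced in wounded and hyperproliferative epithelium and abundant in squamous carcinoma, was counted apart from the classes (chr17:39775694-39781094, minus strand, GRCh37). Its level was 703 and 847 CPM in siRNA control and 1101 and 1001 CPM in ETS1 siRNA. The log2 fold change of 0.44 (SE 0.13, 95% interval 0.13 to 0.75) did not pass the threshold (edgeR adjusted p = 0.154). In shCON it was at 402 and 435 CPM and in shETS1 at 1004 and 884 CPM, a rise of 1.17 on the log2 scale (SE 0.09, edgeR adjusted p = 5.41e-09). Of its 50-base stretches, 17.9% are shared with other transcripts.

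**Figure D2:**
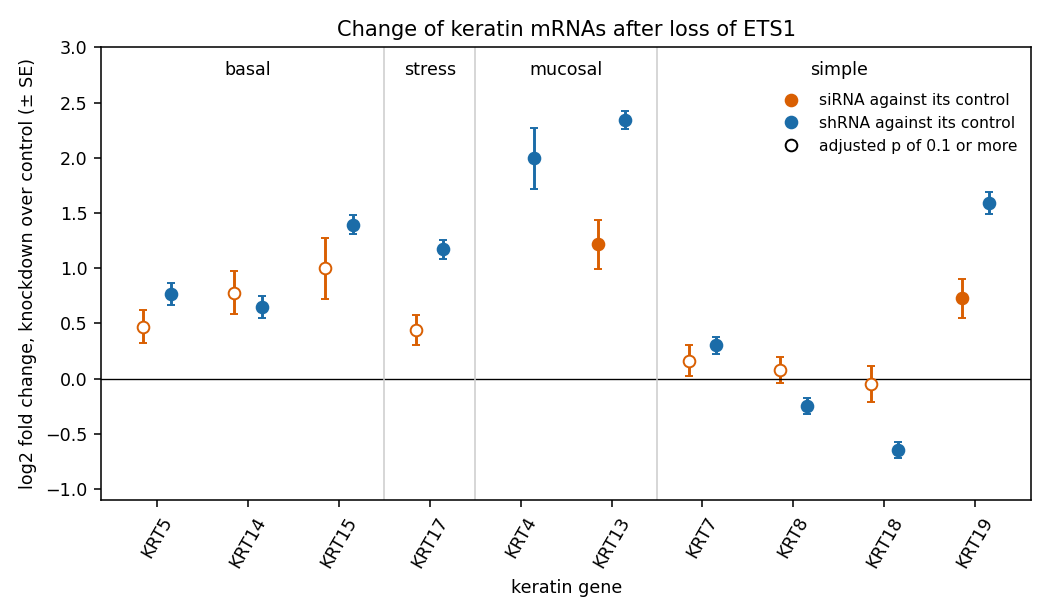
Log2 fold change of each keratin, knockdown over its own control, with bars of 1 SE, for siRNA (orange) and shRNA (blue); open points had an adjusted p of 0.1 or more, and KRT4 was not tested after siRNA. The shRNA points run from -0.65 for KRT18 to 2.34 for KRT13, while KRT7, KRT8 and KRT18 lie near 0 after siRNA.

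The siRNA calls rested on siRNA control replicate 1, which was the lower control for KRT5, KRT14, KRT15, KRT13, KRT19 and KRT17. Without it, 0 of the 9 keratins were called, and only 72 genes in all. KRT13 then had a log2 fold change of 0.93 (edgeR adjusted p = 0.27) and KRT19 of 0.50 (edgeR adjusted p = 0.678). Without ETS1 siRNA replicate 2 the call of KRT19 was also lost (edgeR adjusted p = 0.131), while KRT13 stayed called. Leaving out siRNA control replicate 2 gave log2 fold changes of 1.55 for KRT13 and 1.00 for KRT19. Leaving out ETS1 siRNA replicate 1 gave 1.23 for KRT13 and 0.75 for KRT19. DESeq2 called 6 keratins after siRNA, adding KRT5, KRT14, KRT15 and KRT17, among 797 genes called in all. After shRNA the direction of each of the 10 keratins was the same under every alternative run. Scaling by library size alone put the all-gene median of the shRNA comparison at -0.12 on the log2 scale and the share of calls that were higher from 49.1% to 36.6%. All 10 keratins kept their direction and their call under it, with KRT8 at -0.38, KRT18 at -0.77 and KRT7 at 0.18.

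The difference between the knockdowns was tested with all 8 libraries together, by subtracting the siRNA effect from the shRNA effect, which called 34.8% of the 17190 genes tested (15.1% higher and 19.7% lower). Of the 9 keratins considered, 5 were called, 3 higher and 2 lower, and KRT4 was left out because of its siRNA counts. The change was more positive after shRNA for KRT13 by 1.10 on the log2 scale (SE 0.22, edgeR adjusted p = 0.00441), for KRT19 by 0.85 (SE 0.22, edgeR adjusted p = 0.0162) and for KRT17 by 0.71 (SE 0.16, edgeR adjusted p = 0.00881). It was more negative for KRT18, with a difference of -0.62 (SE 0.19, edgeR adjusted p = 0.0301), and for KRT8, with -0.35 (SE 0.13, edgeR adjusted p = 0.0702), the least stable of the 5 calls across the alternatives. KRT7 differed by 0.12 (95% interval -0.26 to 0.50) and was not called. ETS1 itself differed by 1.23 (SE 0.21, edgeR adjusted p = 0.0017), its fall being smaller after shRNA. Because the tables also differ in preparation, these differences cannot be assigned to the kind of knockdown.

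The balance within pairs moved with these changes. The TPM ratio of KRT8 to KRT18 was 1.15 and 1.14 in shCON and 1.5 and 1.51 in shETS1, without overlap, and 2.05 and 2.43 in siRNA control against 2.67 and 2.23 in ETS1 siRNA, with overlap. The ratio of KRT7 to KRT19 was 7.63 and 7.11 in shCON and 2.94 and 3.07 in shETS1, and 5.65 and 3.67 in siRNA control against 2.72 and 3.34 in ETS1 siRNA, lower after knockdown in both tables. The ratio of KRT5 to KRT14 stayed between 0.96 and 1.35 in all 8 libraries. It was lower after ETS1 siRNA (0.98 and 0.96) than in its control (1.35 and 1.10) and higher in shETS1 (1.10 and 1.08) than in shCON (1.02 and 0.99). With 2 libraries against 2 an exact two-sided permutation test cannot give a p below 0.333, so none of these ratios was tested.

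Together the 10 keratins took 1.2% and 1.55% of all counts in siRNA control and 2.07% and 1.86% in ETS1 siRNA. In the hairpin cells they took 1.13% in each shCON library and 1.70% and 1.75% in shETS1. The knockdown libraries were above the controls in both tables. Of the summed TPM of the 10 genes, basal keratins held 74.2% and 79.2% in siRNA control against 82.8% and 79.6% in ETS1 siRNA, and 89.5% and 88.9% in shCON against 87.7% and 88.9% in shETS1. The share of the simple keratins was 5.27% and 5.48% in shCON and 3.44% and 3.16% in shETS1, and that of the mucosal keratins 0.567% and 0.627% against 1.89% and 1.77%. In the siRNA table the simple share was 18.5% and 14.0% in the controls and 10.6% and 13.8% after knockdown, and the mucosal share was between 0.039% and 0.072%. Summed type II over type I TPM of the 10 genes was 1.29 and 1.07 in siRNA control and 0.946 and 0.955 in ETS1 siRNA, and between 0.906 and 0.938 in the 4 hairpin libraries. Over all keratin genes of the tables the ratio was 1.43 and 1.37 in shCON and 1.25 and 1.26 in shETS1, without overlap, and 1.83 and 1.57 in siRNA control and 1.38 and 1.32 in ETS1 siRNA.

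**Figure D3:**
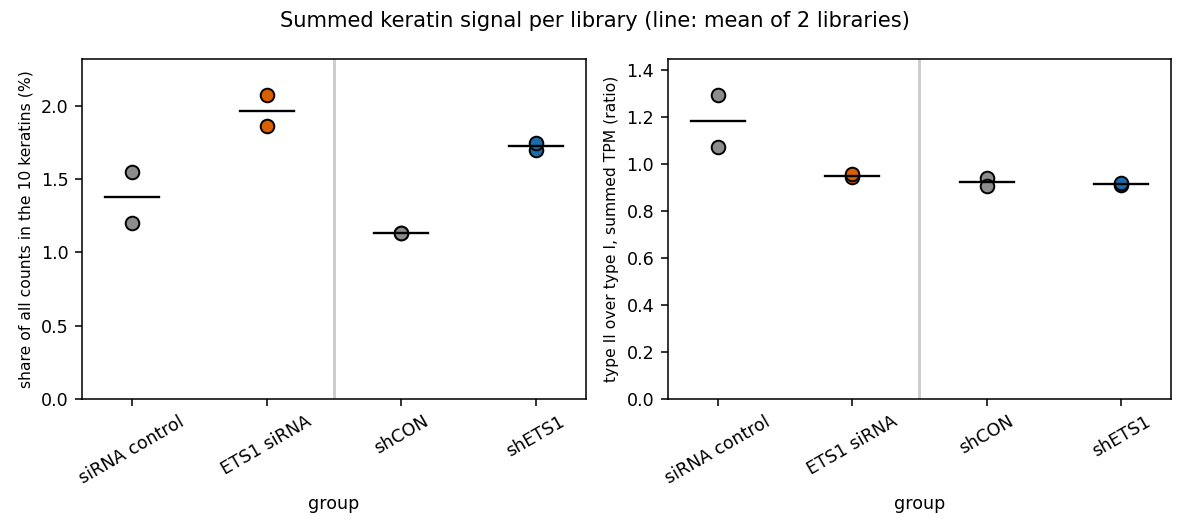
Left, share of all counts that fell on the 10 keratins in each library (%); right, summed TPM of their type II over their type I genes (ratio). Points are libraries, lines the mean of 2, and the grey line separates the siRNA and shRNA tables; the share is higher in both knockdowns, and the 10-gene ratio of the hairpin libraries lies between 0.906 and 0.938, while the ratio over all keratin genes, not drawn, was lower in shETS1 (1.25 and 1.26) than in shCON (1.43 and 1.37).

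Type I and type II keratin genes lie in clusters on chromosomes 17 and 12. KRT13, KRT15 and KRT19 follow each other directly on chromosome 17, and all 3 rose after shRNA by at least 1.39 on the log2 scale, while after siRNA they had the fold changes 1.22, 1.00 and 0.73. Further along the same cluster KRT14 and KRT17 rose after shRNA by 0.65 and 1.17, while KRT16, which lies between them, rose by 2.59. On chromosome 12, KRT7, KRT5 and KRT4 rose after shRNA, while KRT8 and KRT18, which follow KRT4 among the members, fell.

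**Figure D4:**
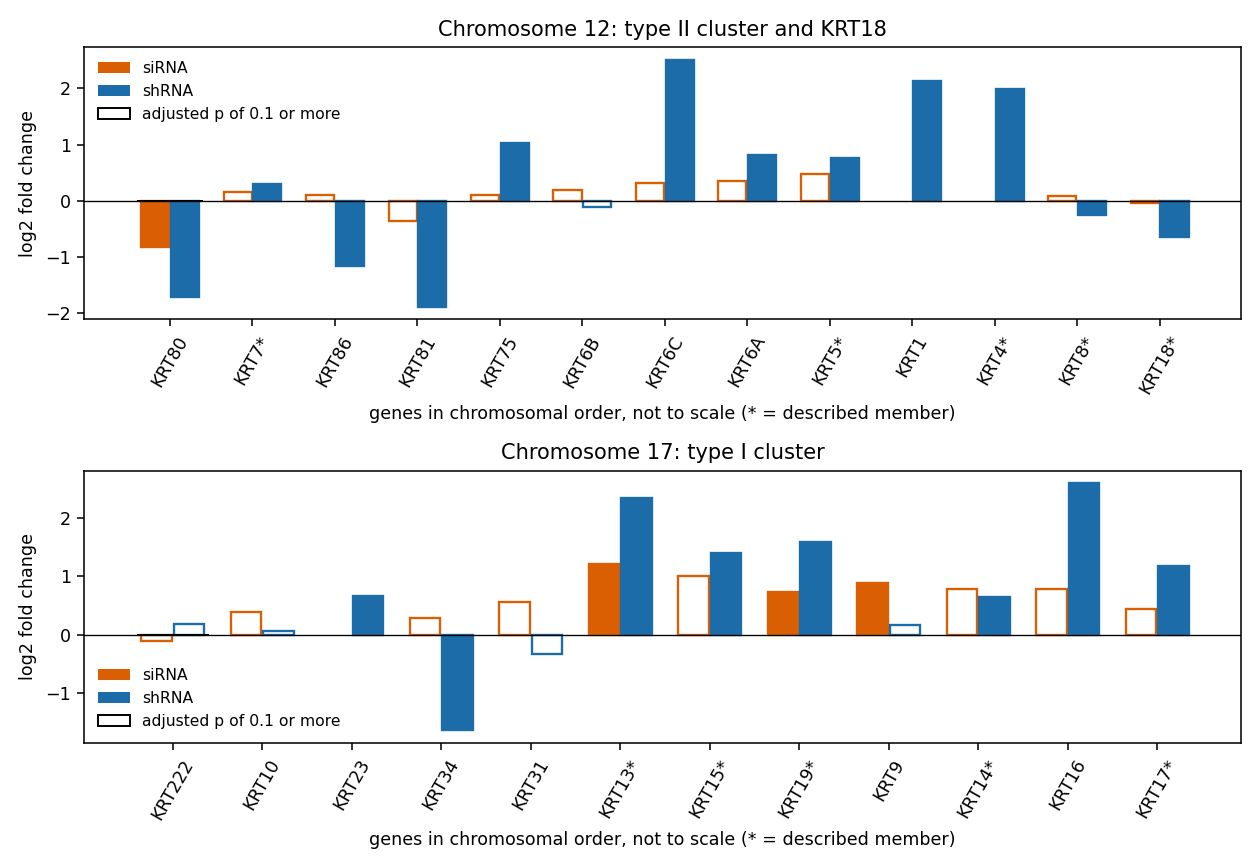
Log2 fold change of the keratin genes of chromosome 12 (top) and chromosome 17 (bottom) whose mean reached 1 CPM in some group, in chromosomal order and not to scale, for siRNA (orange) and shRNA (blue). Open bars had an adjusted p of 0.1 or more, a missing bar was not tested and asterisks mark the 10 keratins described; KRT13, KRT15 and KRT19 stand side by side with filled blue bars of 2.34, 1.39 and 1.60.

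The tables hold 45 other keratin genes, of which 15 were tested in each knockdown. After shRNA 6 of the 15 were called higher and 4 lower, and after siRNA 1 higher (KRT9, log2 fold change 0.89, edgeR adjusted p = 0.0973, named here because it was the single rise) and 1 lower (KRT80). The shares called over all genes tested were 60.6% after shRNA and 3.41% after siRNA. KRT16, a stress keratin like KRT17, rose after shRNA from 226 and 236 CPM to 1281 and 1509 CPM, by 2.59 on the log2 scale (SE 0.09, edgeR adjusted p = 6.01e-13), and had a fold change of 0.79 after siRNA (edgeR adjusted p = 0.169). KRT6A, the type II partner of KRT16, rose by 0.81 after shRNA (edgeR adjusted p = 1.54e-06) and KRT75, a hair follicle keratin, by 1.02 (edgeR adjusted p = 1.04e-06). KRT6B had a fold change of -0.11 (edgeR adjusted p = 0.263) and KRT10, a keratin of the upper epidermis, of 0.06 (edgeR adjusted p = 0.699) after shRNA. The falls after shRNA included KRT80 with -1.71, the hair keratins KRT81 with -1.89 and KRT34 with -1.63. KRT80 also fell after siRNA, by 0.83 on the log2 scale (edgeR adjusted p = 0.0926). KRT6A, KRT6B, KRT10, KRT16, KRT34, KRT75 and KRT81 were not called after siRNA.

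Among 20 genes for proteins that anchor keratin filaments, at desmosomes, hemidesmosomes or along the filament, 9 were called higher and 9 lower after shRNA. After siRNA 1 was called higher and 0 lower, and 4 had an unadjusted p under 0.05. Of all genes tested, 60.6% were called after shRNA and 3.41% after siRNA, where 2721 of 14742 had an unadjusted p under 0.05. The 20 had a median log2 fold change of -0.05 after shRNA and 0.15 after siRNA. DSG3, a desmosomal cadherin of stratified epithelium, rose by 1.43, PERP, a desmosomal membrane protein, by 1.33 and DST, a linker of keratin to hemidesmosomes, by 1.13 on the log2 scale after shRNA. JUP, which encodes plakoglobin, fell by 0.78, TCHP, a keratin-binding protein, by 0.77 and FAM83H by 0.50. PKP3, a desmosomal plaque protein, rose after siRNA by 0.57 (edgeR adjusted p = 0.0964) and fell after shRNA by 0.24 (edgeR adjusted p = 0.0103).

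Of 16 other intermediate filament genes 9 were tested, and after shRNA 1 was called higher and 6 lower, with a median of -0.56. The share called over all genes after shRNA was 60.6% (29.7% higher and 30.9% lower). SYNC rose by 1.97, while NES (nestin) fell by 2.34, LMNB1 (lamin B1) by 1.25 and LMNB2 by 0.67 on the log2 scale. After siRNA 1 of the 9 was called, LMNA (lamin A/C), which rose by 0.63 (edgeR adjusted p = 0.0574), and 0 were called lower, with 3 of the 9 under an unadjusted p of 0.05. Over all genes, 3.41% were called after siRNA and 2721 of 14742 had an unadjusted p under 0.05. LMNA fell after shRNA by 0.41 (edgeR adjusted p = 0.000411).

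For 9 of the keratins the gene nearest in pattern is given, sought among 10050 genes whose mean reached 5 CPM in each table, by the Euclidean distance over 8 libraries of log2 CPM centred within each table. KRT16 was nearest to KRT13 (0.56), TREM2 to both KRT19 (0.33) and KRT15 (0.48), and MAOA to KRT17 (0.12). CCDC64 was nearest to KRT5 (0.12) and JDP2 to KRT14 (0.18). HTATSF1 was nearest to KRT8 (0.03), C1GALT1 to KRT18 (0.05) and UQCRH to KRT7 (0.07). Among the members, KRT5 was nearest to KRT14 and KRT15 to KRT19, and KRT8 and KRT18 to each other, at distances of 0.41, 0.51 and 0.49. Many other genes lay nearer than these members in some cases, with KRT14 at place 168 for KRT5, KRT18 at place 3517 for KRT8 and KRT8 at place 1016 for KRT18.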

How the data were processed

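The deposited files hold unnormalized read counts for each gene, in 1 table per knockdown. The authors sequenced TruSeq libraries with 50-base single-end reads. Alignment to GRCh37 used TopHat2 2.1.1 on Bowtie2 2.2.6 and counting used featureCounts 1.5.0, as their methods and processing notes say. Strand use and the handling of multiply mapped reads are not given in the sources used here. Depth per library is given above.

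Counts were fitted in edgeR 4.0.16 (R 4.3.3) and tested by its quasi-likelihood method, two-sided (TMM scaling, filterByExpr, group only), on the 4 libraries of each table or on all 8 for the difference between knockdowns. P-values were adjusted by Benjamini-Hochberg over all genes tested, with a threshold of 0.1. SEs were derived from fold changes and F statistics. CPM used TMM-scaled library sizes; TPM used canonical transcript lengths of GENCODE v44 on GRCh37. The edgeR test was also run on data simulated from each table, with 200 genes changed by an equal fold. It recovered 79% of these in the siRNA setting and 93.5% in the shRNA setting, at mean log2 fold changes of 0.976 and 1.02. False calls made up 13.2% and 19.7% of all calls, more than the threshold allows. Smaller changes, and a comparison in which most genes change, were not simulated.

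Within each group the libraries were further apart than counting error gives (chi-square over its degrees of freedom at least 7). The common dispersion was 0.0192 in the siRNA table and 0.00402 in the shRNA table, so that the siRNA comparison was less precise.

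Named genes were all 10 keratins, ETS1, other keratins whose mean reached 5 CPM in either table, the 3 called members with the smallest adjusted p per direction and knockdown of the lists of partners and other intermediate filaments, and the gene nearest to each keratin, of which 1 is not reported here. The keratins, lists and rules were chosen with earlier results of these data known. Alternatives were other scalings and filters, DESeq2 1.42.0, a replicate block, a fit of all 8 libraries, added pseudogene counts, a threshold of 0.05 and leaving out each library. A crossed pairing of replicates was added after seeing the data.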

Additional observations from a re-analysis of the deposited data

Results flagged for a closer look

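For 5 of the 9 keratins considered, the effects of the 2 knockdowns differed by the test of the difference itself (edgeR, all 8 libraries). The same test called 34.8% of the 17190 genes tested. The shRNA effect minus the siRNA effect was 1.10 for KRT13, 0.85 for KRT19, 0.71 for KRT17, -0.35 for KRT8 and -0.62 for KRT18 on the log2 scale. KRT8 lost its call in 10 of 20 alternatives (edgeR adjusted p from 0.027 to 0.23 over the 20), and KRT18 in 1, the replicate block (edgeR adjusted p = 0.11). The tables differ in preparation as well as in the kind of knockdown, and their parts cannot be told apart. Groups of 2 libraries are too small for a check of single outlying libraries.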

How the results depend on the processing

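Of the 169 values for single keratins after shRNA under alternatives, 168 kept their direction and side of the threshold. After siRNA 117 of 153 did, 27 became called, 6 lost their call and 3 changed sign. For the difference between knockdowns 164 of 180 did, 2 became called, 11 lost their call and 3 changed sign. Each of these totals includes a crossed pairing of replicates that was added after seeing the data. Under it KRT5, KRT14, KRT15 and KRT17 became called after siRNA. The keratins called after siRNA (2) became 6 with no filter on low counts, with DESeq2 and with all 8 libraries in one fit, 4 with at least 10 counts in every library and with protein-coding genes of at least 1 TPM, 1 at an adjusted p under 0.05, and 0 to 4 leaving out 1 library. Genes called after siRNA (502) became 1466 with no filter, 783 with the TPM filter, 797 with DESeq2, 2166 with all 8 libraries in one fit, 190 at an adjusted p under 0.05, and 72 (without siRNA control replicate 1) to 1478 (without ETS1 siRNA replicate 1). Scaling by library size alone gave class medians after shRNA of 0.64 for basal and -0.10 for simple keratins. Leaving out 1 library moved the basal median after siRNA between 0.50 and 1.13, and the simple median between -0.0058 and 0.235 after siRNA and between -0.039 and 0.082 after shRNA. Signs changed among values that were not called: leaving out 1 library, KRT18 after siRNA ranged from -0.26 to 0.14, KRT7 after siRNA from -0.016 to 0.32, and the differences between knockdowns from -0.51 to 0.12 for KRT14, from -0.22 to 0.79 for KRT15 and from -0.044 to 0.29 for KRT7. KRT14, without siRNA control replicate 2 (edgeR adjusted p = 0.05), and KRT15, without siRNA control replicate 1 (edgeR adjusted p = 0.014), became called at these ends. The cause of these shifts was not tested. With 2 libraries a group the spread between replicates is poorly known, and a group left with 1 library was assumed to vary like the others.

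Whether libraries with the same replicate number were handled together is not given in the sources used here. The deviations of same-numbered libraries ran in opposite directions in the siRNA table (correlation -0.57) and were little related in the shRNA table (correlation -0.13). With the replicate block, 0 keratins and 97 genes were called after siRNA, and 3 keratins had a called difference between knockdowns (5 without it). A crossed pairing, added after seeing the data, called 6 keratins and 3238 genes after siRNA.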
